A study of Mus musculus with 40 samples.

Results

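The genes described here build, acidify and fill the lysosome: 37 genes chosen by function, of 57010 genes in the count table. They comprised 6 subunits of the V0 sector and 8 of the V1 sector of the vacuolar H+-ATPase (V-ATPase), 2 accessory proteins of that pump, 6 proteins of the lysosomal membrane, the 3 transcription factors Tfeb, Tfe3 and Mitf, and 12 hydrolases and other luminal proteins. All 37 passed a minimum-count filter set over all libraries, which 12522 genes passed. Messenger RNA was measured by 3′ tag sequencing, which counts transcripts by a tag at the polyadenylated end, in macrophages grown from mouse bone marrow in medium conditioned by L929 cells. Every group carried the floxed Otulin allele (OtulinFL/FL), a gene for a deubiquitinase of linear ubiquitin chains. The groups called WT had no Cre, and those called KO were OtulinFL/FL LysMCreTg/WT, with Cre driven from the lysozyme 2 locus, which is active in macrophages and also in neutrophils. Cells were taken before stimulation (0 h) or after 3, 6, 12 and 24 h with lipopolysaccharide (LPS), an ultrapure preparation of Salmonella minnesota given at 500 ng/ml, with 4 replicates per genotype and time and 40 libraries in all. No group had Cre without the floxed allele, so loss of Otulin and presence of Cre cannot be told apart in any difference between KO and WT. The age of the mice is not given in the sources used here.

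The V-ATPase pumps protons into the lysosome: its membrane sector V0 forms the proton channel, its cytosolic sector V1 splits ATP, and assembly of both is reversible. The acid that it makes activates the hydrolases, while glycoproteins such as LAMP1 and LAMP2 line the inner face of the membrane. TFEB, TFE3 and MITF are related basic helix-loop-helix factors that bind E-boxes with the core CACGTG in the promoters of many lysosomal genes, and they are controlled largely by phosphorylation and movement to the nucleus, which RNA counts do not show. In macrophages this system digests phagocytosed bacteria, and osteoclasts, which share the macrophage's precursor, use a V-ATPase at the cell surface to acidify bone.

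Stretches of the promoters of 5 members show the E-box core that the 3 factors share, in capitals, in upstream sequence of RefSeq (build GRCm38.p6), each written along the gene's own strand. They were chosen because Lamp1 and Atp6v0b were called higher at all 4 times of LPS in both genotypes, whereas Mcoln1, Atp6v1a and Gla hold the core within the longer palindrome TCACGTGA and were called at fewer times. The other members called higher at all 4 times in both genotypes, Atp6v1e1, Lamp2, Mitf and Npc2, held no CACGTG in the window defined below. The stretch of Lamp1 is chr8:13159061-13159160 (+ strand), that of Atp6v0b is chr4:117887330-117887429 (− strand) and that of Mcoln1 is chr8:3500419-3500518 (+ strand), each of them the 100 bases before the start. The stretch of Atp6v1a is chr16:44139320-44139419 (− strand, 160 to 61 bases before the start) and that of Gla is chrX:134601156-134601255 (− strand, 250 to 151 bases before the start).
Lamp1: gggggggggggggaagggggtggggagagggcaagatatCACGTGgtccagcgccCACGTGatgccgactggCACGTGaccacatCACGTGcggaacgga
Atp6v0b: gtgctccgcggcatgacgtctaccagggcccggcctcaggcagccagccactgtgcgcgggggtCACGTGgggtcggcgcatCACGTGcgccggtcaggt
Mcoln1: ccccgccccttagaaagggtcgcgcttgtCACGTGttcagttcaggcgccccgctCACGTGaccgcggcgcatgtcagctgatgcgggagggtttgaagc
Atp6v1a: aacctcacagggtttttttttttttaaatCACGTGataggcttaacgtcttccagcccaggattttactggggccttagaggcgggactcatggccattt
Gla: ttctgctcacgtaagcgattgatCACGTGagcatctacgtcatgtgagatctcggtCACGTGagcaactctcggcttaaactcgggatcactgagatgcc

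Lamp1 holds 4 copies of the core in 100 bases, and Atp6v0b, Mcoln1 and Gla hold 2 each. A promoter window (250 bases before to 50 after the start) was found for 31 of the 37 members, and 9 of these held CACGTG at least 1 time, in addition to the 5 above Atp6v0d1, Atp6v0e, Glb1 and Gaa. That is 29% of the members with a window, against 8.09% of 27025 genes with one. The palindrome TCACGTGA, which contains CACGTG, stood in 5 members (Atp6v0d1, Atp6v0e, Atp6v1a, Mcoln1 and Gla), 16.1%, against 1.12% of genes. Both motifs read the same on either strand, and a match is a run of letters, not a bound site. In WT at 6 h of LPS, 4 of the 9 members with CACGTG were called higher and 1 lower, with a median log2 fold change of 0.09, while of the 22 members without it 13 were called higher and 5 lower, with a median of 0.24. In KO the counts at 6 h were 3 higher and 1 lower of 9, and 13 higher and 5 lower of 22, with medians of 0.13 and 0.29. Over all genes tested at 6 h, 31% were called higher and 37.1% lower in WT, and 28.7% and 36% in KO.

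Libraries held 3615155 to 6829303 counts. Values are given as CPM, the share of a library's scaled total that a gene's counts take, with TMM scaling over the 40 libraries. Differences are edgeR log2 fold changes ± their standard error (SE), called where the quasi-likelihood test's p, adjusted over all genes tested by Benjamini-Hochberg, is under 0.05. Otulin lay at 27.6 to 51.7 CPM in the 20 KO libraries and at 27.6 to 47.5 in the 20 WT libraries. A 3′ tag does not report on a deletion elsewhere in the gene, and the genotype labels cannot be checked with it. Summed macrophage markers were the highest of the cell type lists, at 1910 to 4150 CPM over all libraries, and defining markers of lymphoid, erythroid and mast cells summed to at most 2.03 CPM. The libraries KO 1 at 0 h and KO 4 at 12 h stood apart: of 8319 genes, 244 and 263 lay more than 0.5 log2 above all 3 other replicates and 304 and 370 lay below, against medians of 24 and 49 and highest values of 129 and 317 in the other 38 libraries, and 114 genes were above in both. Among the members, Hexa and Tfeb were raised most in both libraries, and their values are given with and without them. Other members were also highest there, by less, such as Atp6v0e at 253 CPM (others 182 to 211) and 343 (others 271 to 290). Asah1 and Lamp1 were too, and their KO changes are given with these libraries only.

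From 6 h on LPS moved most of the genes by modest amounts, more of them upward than downward with TMM scaling, although with library totals more were called lower at each time against 0 h. At 6 h in WT, 20 of the 37 members were called higher and 8 lower, and at 24 h 16 were higher and 7 lower. The members' median log2 fold change was 0.20 at 6 h and 0.16 at 24 h, beside −0.09 and −0.02 over all genes tested. Calls were as frequent in the table as a whole, where at 6 h 31% of genes were called higher and 37.1% lower, and at 24 h 34.5% higher and 35.4% lower. The members' share of lower calls was below, and their share of higher calls above, these values at 6 h. At 3 h 13 members were called higher and 7 lower (all genes 26.6% and 28%), and at 12 h 20 were higher and 6 lower (32.3% and 35.9%). Without WT replicate 2, the number lower at 3 h was 3.

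In KO the counts were 9 higher and 3 lower at 3 h (all genes 22.9% and 25.7%), 18 and 8 at 6 h (28.7% and 36%), 20 and 6 at 12 h (30.7% and 34%), and 17 and 7 at 24 h (32.8% and 33%). Without KO replicate 3, the number higher at 3 h was 15. Members called in both genotypes numbered 12 at 3 h, 26 at 6 h, 24 at 12 h and 21 at 24 h, and all of them moved the same way in WT and KO. The same count over all genes was not made, so this agreement is not shown to be particular to the members. The 4 times of a genotype share its 0 h libraries, so their calls are not independent of each other. In bulk RNA, fewer cells of a type and less RNA per cell cannot be told apart.

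These directions are relative to the scaling. Scaled by library totals alone, without composition factors, the median of all genes in WT moved from −0.09 to −0.59 at 6 h and from −0.02 to −0.32 at 24 h, and the members' counts turned to 5 higher and 25 lower at 6 h and 12 higher and 16 lower at 24 h. In KO that scaling gave 6 higher and 27 lower at 6 h and 11 and 14 at 24 h. Of the 20 members called higher in WT at 6 h, 14 then lay below 0 h, while all 8 called lower were still called lower. Mitf and Atp6v1e1 were called higher with library totals at all 4 times in both genotypes, and Npc2 and Lamp2 at 6, 12 and 24 h. The members' median relative to that of all genes hardly depended on it: in WT it was 0.29 above at 6 h under both scalings, and 0.17 above at 24 h.

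**Figure D1:**
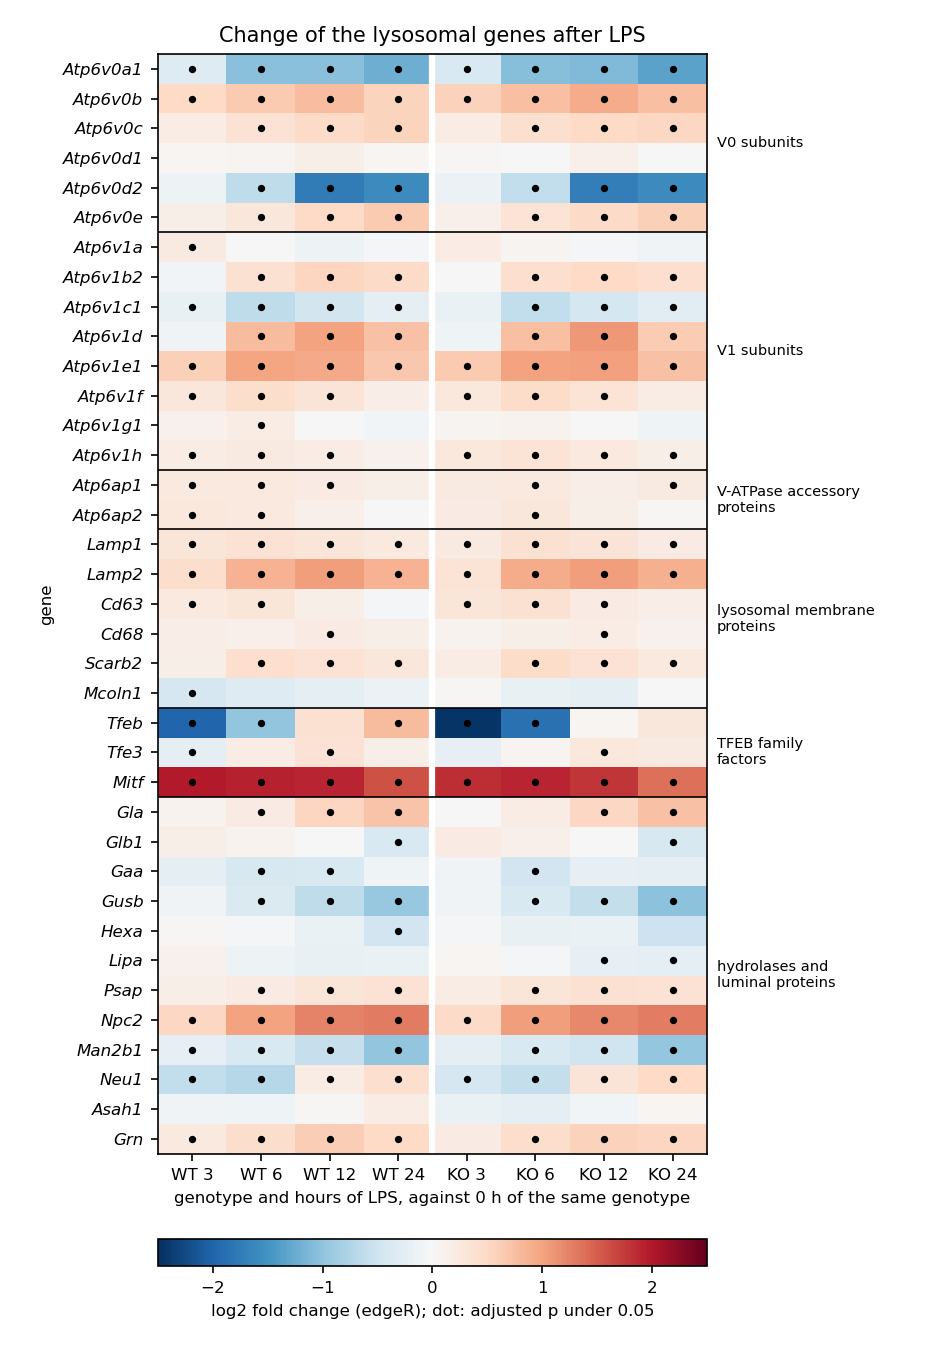
Heat map of the log2 fold change of each of the 37 genes (rows, grouped by role) at 3, 6, 12 and 24 h of LPS against 0 h in WT and KO (columns), with a dot where the adjusted p was under 0.05. WT and KO look alike, with Mitf, Npc2, Lamp2 and Atp6v1e1 higher and Atp6v0a1, Atp6v0d2 and Man2b1 lower, and with Tfeb lower at 3 and 6 h.

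Among the 3 transcription factors, Mitf and Tfeb moved in opposite directions early after LPS. Mitf, known as the melanocyte factor and also required in osteoclasts, stood at 66.7, 67.6, 76.2 and 95.8 CPM in the 4 WT libraries at 0 h and at 297, 293, 294 and 321 at 3 h. In KO it stood at 92.9, 70.9, 84.2 and 81.8 at 0 h and at 325, 259, 293 and 315 at 3 h. In either genotype each 3 h library lay above each 0 h library. The rise was 3.93-fold in WT (log2 1.97 ± 0.09, adjusted p = 2.03e-16) and 3.59-fold in KO (1.85 ± 0.11, adjusted p = 1.57e-13).

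Mitf remained high afterwards. In WT its log2 fold change against 0 h was 1.92 at 6 h, 1.90 at 12 h and 1.59 at 24 h, and in KO it was 1.90, 1.79 and 1.38. Between 6 h and 24 h it fell by 0.33 ± 0.08 in WT (adjusted p = 0.00133) and by 0.52 ± 0.10 in KO (adjusted p = 1e-04). With library totals the fall in WT was not called (−0.13, adjusted p = 0.162). It was still 3.02-fold above 0 h in WT at 24 h and 2.6-fold in KO.

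Tfeb, the founding regulator of lysosomal genes, fell early and came back. In WT it stood at 6.69, 7.92, 5.54 and 4.69 CPM at 0 h, at 2.97, 0.826, 1.78 and 0.802 at 3 h, and at 9.74, 10.7, 10.7 and 11.7 at 24 h. The 3 groups did not overlap, with 3 h lowest and 24 h highest. These are low counts, 3 to 13 tags per library at 3 h and 41 to 69 at 24 h. Tfeb fell 3.94-fold at 3 h in WT (log2 −1.98 ± 0.29, adjusted p = 1.89e-06) and 1.99-fold at 6 h (−0.99 ± 0.26, adjusted p = 0.00154). It stood 1.72-fold above 0 h at 24 h (0.78 ± 0.21, adjusted p = 0.00173), and at 12 h it was not called (0.37 ± 0.22, adjusted p = 0.132).

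In KO Tfeb stood at 20.6, 6.82, 9.87 and 8.49 CPM at 0 h, at 1.18, 1.69, 1.59 and 3.72 at 3 h, and at 14.1, 15.1, 14 and 12.1 at 24 h. The 20.6 at 0 h and a 20.9 at 12 h belong to the libraries that stood apart. Tfeb fell by 2.45 ± 0.40 at 3 h (adjusted p = 2.28e-05) and by 1.87 ± 0.39 at 6 h (adjusted p = 0.000267). At 24 h it was not called (0.28 ± 0.31, adjusted p = 0.443). Leaving out KO 1 at 0 h and KO 4 at 12 h was chosen after the data had been seen. Without them the change at 3 h was −1.99 (adjusted p = 1.38e-06), at 6 h −1.37 (adjusted p = 0.000117) and at 24 h 0.74 (adjusted p = 0.00547). Without replicate 1 at all times it was 0.73 at 24 h (adjusted p = 0.0425). From 6 h to 24 h Tfeb rose by 1.78 ± 0.25 in WT (adjusted p = 9.91e-07) and by 2.15 ± 0.39 in KO (adjusted p = 6.79e-05).

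Tfe3, a broadly expressed relative of Tfeb, changed little. In WT it stood at 113, 111, 116 and 115 CPM at 0 h, at 94.5, 102, 95.7 and 90.1 at 3 h and at 133, 151, 136 and 163 at 12 h. The 3 h libraries lie below and the 12 h libraries above all those at 0 h. It was called lower at 3 h (−0.25 ± 0.10, adjusted p = 0.0279) and higher at 12 h (0.35 ± 0.09, adjusted p = 0.00172) in WT, and at 6 h and 24 h it was not called. In KO it was called only at 12 h (0.27 ± 0.10, adjusted p = 0.0205), where it was not called without replicate 3 (0.17, adjusted p = 0.161). The call at 3 h was lost without WT replicate 2 or 3 (adjusted p = 0.0871 and 0.0981), with DESeq2 (adjusted p = 0.1) and with its size factors in edgeR (adjusted p = 0.0659). Tfe3 was called higher at 6 h in WT without replicate 1 (0.29, adjusted p = 0.0138), with DESeq2 (0.26, adjusted p = 0.0248) and with its size factors (0.26, adjusted p = 0.0193). It was called higher in KO at 24 h without replicate 2 (0.30, adjusted p = 0.0431, against 0.22 and 0.0519 with all libraries), with DESeq2 (adjusted p = 0.024), with its size factors (adjusted p = 0.0272) and in one fit of all libraries (adjusted p = 0.0439). Without the KO libraries that stood apart it was called lower in KO at 3 h (−0.25, adjusted p = 0.0371). Scaled by library totals, Tfe3 lay below 0 h at 6 h and 12 h in both genotypes.

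**Figure D2:**
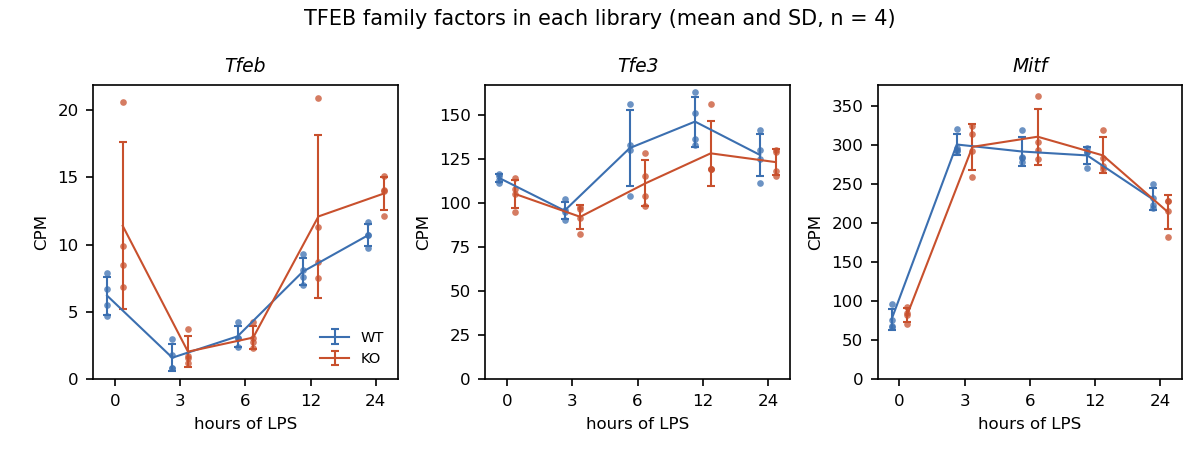
Level in CPM of Tfeb, Tfe3 and Mitf (panels) in each library over hours of LPS (equally spaced), WT blue and KO orange, with lines through the means and bars of 1 SD over 4 replicates. Mitf lay at 66.7 to 95.8 CPM at 0 h and at 182 to 363 in every LPS library, whereas Tfeb fell to 0.802 to 3.72 at 3 h and passed its WT 0 h level by 24 h.

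Within the V0 sector the proteolipid and small subunits rose (with library totals Atp6v0c and Atp6v0e were called higher only at 24 h), while 1 isoform each of the a and d subunits fell. Of the 6 V0 genes, 3 were called higher and 2 lower at 6, 12 and 24 h in WT, and the same numbers in KO. Over all genes tested, 31% to 34.5% were called higher and 35.4% to 37.1% lower at those times in WT. In KO the shares were 28.7% to 32.8% and 33% to 36%. Those that rose were Atp6v0b and Atp6v0c, which encode the proteolipids of the rotating ring, and Atp6v0e. Atp6v0b was at 228, 227, 264 and 227 CPM at 0 h and at 422, 401, 377 and 422 at 12 h in WT, and at 195, 235, 239 and 240 and then 454, 440, 481 and 378 in KO. The 0 h and 12 h values do not overlap in either genotype. Its log2 fold change at 12 h was 0.77 ± 0.07 in WT (adjusted p = 8.37e-10) and 0.93 ± 0.09 in KO (adjusted p = 8.29e-10).

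Atp6v0a1, whose product anchors the stator and takes part in proton movement, fell most steadily. In WT it stood at 247, 215, 241 and 257 CPM at 0 h, at 132, 97.3, 109 and 128 at 6 h and at 102, 89.6, 105 and 115 at 24 h. In KO it stood at 255, 236, 260 and 268 at 0 h, at 114, 123, 123 and 134 at 6 h and at 91.4, 107, 110 and 92.9 at 24 h. No library at 6 h or 24 h reached a 0 h value of its genotype. Atp6v0a1 fell 2.06-fold at 6 h in WT (log2 −1.04 ± 0.10, adjusted p = 1.46e-09) and 2.09-fold in KO (−1.06 ± 0.09, adjusted p = 4.71e-10), and by 24 h it had fallen 2.34-fold and 2.54-fold. It was the only member called lower at all 4 times in both genotypes by this test.

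The d subunit, which couples the stalk to the ring, has a widely expressed form, Atp6v0d1, and a form known from osteoclasts and macrophages, Atp6v0d2, and the pair moved differently. Atp6v0d1 was at 132, 126, 136 and 131 CPM at 0 h in WT and at 141, 138, 127 and 138 at 24 h, and at 152, 123, 137 and 134 and then 144, 130, 124 and 142 in KO. The values at 0 h and 24 h overlap. With TMM scaling it was not called by this edgeR test at any time in either genotype, with log2 fold changes from −0.01 to 0.14 and SEs of 0.06 to 0.09. At 12 h in WT it was called by edgeR with DESeq2's size factors (0.19, adjusted p = 0.0107) and by DESeq2 (0.20, adjusted p = 0.00507). Scaled by library totals, where the median of all genes itself shifts down, Atp6v0d1 was called lower at 3, 6, 12 and 24 h in both genotypes.

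Atp6v0d2 was at 144, 131, 149 and 192 CPM in WT at 0 h, at 123, 82.3, 92.1 and 102 at 6 h, at 47.2, 36.4, 45 and 54.7 at 12 h and at 47.5, 36.3, 50.4 and 70.2 at 24 h. In KO it was at 273, 179, 225 and 258 at 0 h, at 182, 145, 170 and 117 at 6 h, at 81.5, 67.3, 76.9 and 58.6 at 12 h and at 97.8, 71.4, 73.9 and 66 at 24 h. In each genotype the 12 h and 24 h values lie below all values at 0 h. At 3 h it was not called (WT −0.13 ± 0.17, adjusted p = 0.54, KO −0.16 ± 0.16, adjusted p = 0.438). It fell 1.55-fold at 6 h in WT (adjusted p = 0.00321) and 3.37-fold at 12 h (log2 −1.75 ± 0.18, adjusted p = 7.68e-08). In KO the 12 h fall was 3.32-fold (−1.73 ± 0.17, adjusted p = 5.58e-09), and at 24 h the fall was 3.02-fold in both genotypes.

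In the V1 sector 6 of 8 genes were called higher and 1 lower at 6 h in WT (all genes 31% and 37.1%), and 5 and 1 in KO (all genes 28.7% and 36%). Atp6v1e1, a subunit of the peripheral stalk, stood at 208, 204, 211 and 222 CPM at 0 h and at 421, 387, 403 and 464 at 6 h in WT, and at 239, 218, 220 and 221 and then 440, 473, 426 and 489 in KO. Its 6 h values were all far above those at 0 h, a log2 fold change of 0.98 ± 0.07 in WT (adjusted p = 4.87e-12) and 1.01 ± 0.08 in KO (adjusted p = 2.07e-11). By 24 h it had come down from 6 h by 0.31 ± 0.07 in WT (adjusted p = 0.000515) and by 0.28 ± 0.08 in KO (adjusted p = 0.00283), and it remained called above 0 h. With library totals the change from 6 h was not called (WT −0.11, adjusted p = 0.136, KO −0.02, adjusted p = 0.812). Atp6v1d, of the central stalk, was not called at 3 h and was called higher from 6 h on, reaching 1.00 in WT and 1.09 in KO at 12 h. Atp6v1c1, which joins the stator to V0, ran the other way and was lowest at 6 h (WT −0.64 ± 0.07, adjusted p = 4.12e-09, KO −0.61 ± 0.07, adjusted p = 9.66e-08). The catalytic subunit gene Atp6v1a was called at 3 h in WT (0.23, adjusted p = 0.0239) and not in KO (0.19, adjusted p = 0.0709). The other V1 genes, Atp6v1b2, Atp6v1f, Atp6v1g1 and Atp6v1h, had log2 fold changes of −0.11 to 0.53 over the 4 times of both genotypes.

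The 2 accessory genes, Atp6ap1 and Atp6ap2, whose products help to assemble and traffic the pump, were both called higher at 6 h, with log2 fold changes of 0.25 and 0.24 in WT and 0.24 and 0.28 in KO.

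Of the 6 membrane proteins, Lamp1 and Lamp2 were called higher at all 4 times in both genotypes with TMM scaling. With library totals Lamp1 was called higher at no time, and Lamp2 at 6, 12 and 24 h alone. Lamp2, needed for the fusion of autophagosomes with lysosomes, was at 570, 522, 596 and 593 CPM at 0 h and at 1280, 1180, 1060 and 1190 at 12 h in WT, and at 593, 543, 624 and 563 and then 1230, 1180, 1250 and 1180 in KO. Every 12 h library lay above every 0 h library. The rise was 2.06-fold in both genotypes at 12 h (log2 1.04 ± 0.08, adjusted p = 9.37e-12 in WT, and 1.04 ± 0.07, adjusted p = 2.14e-12 in KO). Lamp1 rose by at most 0.38 in either genotype. Scarb2, the receptor that carries glucocerebrosidase to the lysosome, was called higher at 6, 12 and 24 h in both genotypes, with at most 0.45. The tetraspanin Cd63 was highest at 6 h, and Cd68 was called at 12 h alone. Mcoln1, the lysosomal calcium channel, was at 7.49 to 17.3 CPM in all 40 libraries and was called lower in WT at 3 h (−0.42) and at no time in KO.

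Among the 12 hydrolases and luminal proteins the changes went both ways. At 24 h 5 were called higher and 4 lower in WT (all genes 34.5% and 35.4%), and 5 and 4 in KO (all genes 32.8% and 33%). Npc2, whose product takes part in the export of cholesterol from the lysosome, was at 706, 692, 766 and 790 CPM at 0 h in WT, at 1470, 1400, 1570 and 1530 at 6 h and at 1930, 1800, 1680 and 1850 at 24 h. In KO it was at 821, 681, 822 and 748, then 1540, 1690, 1570 and 1590, then 1830, 1940, 1770 and 1910. It rose at every time, without overlap between 0, 6 and 24 h. At 24 h it stood 2.46-fold above 0 h in WT (adjusted p = 1.1e-13) and 2.43-fold in KO (log2 1.28 ± 0.07, adjusted p = 9.78e-14). It rose further from 6 h to 24 h in both genotypes, by 0.29 in WT (adjusted p = 0.00214) and by 0.24 in KO (adjusted p = 0.00549), and the KO value without replicate 1 was 0.19 (adjusted p = 0.093). Grn, the progranulin gene, Psap, which encodes the saposin precursor, and Gla, alpha-galactosidase, also rose by 24 h, with log2 fold changes of 0.37 to 0.73 over both genotypes.

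Neu1, the lysosomal sialidase, fell and then rose above its starting level, in WT from 125, 129, 129 and 127 CPM at 0 h to 82.2, 77.7, 64.3 and 85.3 at 6 h and then to 175, 166, 170 and 172 at 24 h. In KO it went from 115, 123, 129 and 115 to 73.9, 89.5, 83.2 and 75.6 and then to 154, 191, 162 and 174. The 3 times do not overlap in either genotype. The fall at 6 h was −0.72 ± 0.07 in WT (adjusted p = 2.84e-09) and −0.60 ± 0.08 in KO (adjusted p = 1.13e-06). At 24 h Neu1 was 0.42 ± 0.07 above 0 h in WT (adjusted p = 8.17e-06) and 0.50 ± 0.08 in KO (adjusted p = 8.56e-06). At 12 h its call in WT (0.18, adjusted p = 0.0292) was lost without replicate 1 or 4 (adjusted p = 0.117 and 0.116) and with no filter on low counts (adjusted p = 0.175), and with library totals Neu1 lay below 0 h at 12 h in both genotypes and was not called at 24 h in WT (0.12, adjusted p = 0.152). It was the only member called in both directions over time in KO, and in WT Tfeb and Tfe3 were as well.

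Man2b1, lysosomal alpha-mannosidase, went down throughout, from 215, 208, 191 and 187 CPM at 0 h to 106, 97.9, 104 and 97.2 at 24 h in WT and from 251, 191, 209 and 190 to 120, 114, 110 and 83.7 in KO. All 24 h values lay far below those at 0 h, and the fall was 1.97-fold in both genotypes (WT −0.98 ± 0.07, adjusted p = 1.06e-11, KO −0.98 ± 0.10, adjusted p = 1.28e-08). At 3 h it was called in WT (−0.20, adjusted p = 0.0228), not without replicate 2 or 3 (adjusted p = 0.221 and 0.079) and not with DESeq2, its size factors or one fit of all libraries (adjusted p = 0.0833, 0.0706 and 0.0596). In KO it was not called at 3 h (adjusted p = 0.0807), but was without replicate 4 (−0.25, adjusted p = 0.0384), in one fit of all libraries (adjusted p = 0.0449) and with library totals (−0.56, adjusted p = 3.15e-05). Without the KO libraries that stood apart its fall at 6 h was −0.24 in place of −0.39. Gusb, beta-glucuronidase, was at 368, 364, 349 and 358 at 0 h and at 208, 185, 168 and 182 at 24 h in WT, a fall of 0.96 ± 0.09 (adjusted p = 1.62e-09), and it fell by 1.02 ± 0.09 in KO (adjusted p = 3.27e-10). Glb1, beta-galactosidase, was also called lower at 24 h in both genotypes.

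Hexa, the alpha chain of beta-hexosaminidase, stood at 286, 263, 273 and 314 CPM in WT at 0 h and at 576, 243, 301 and 247 in KO, where 576 belongs to the library that stood apart. It was called lower at 24 h in WT (−0.48 ± 0.10, adjusted p = 0.00023) and not in KO (−0.53 ± 0.24, adjusted p = 0.0642). Without the KO libraries that stood apart the KO change was 0.34 at 3 h (adjusted p = 0.00586), 0.24 at 6 h (adjusted p = 0.0329) and −0.15 at 24 h (adjusted p = 0.188), against −0.04, −0.18 and −0.53 with them. Asah1, acid ceramidase, was called at no time of LPS against 0 h, and Lipa, acid lipase, in KO alone. In the KO library at 0 h that stood apart, Asah1 was at 144 CPM (others 97.5 to 115) and Lipa at 996 (others 732 to 915). The changes of these 2 genes in KO are given with that library only.

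**Figure D3:**
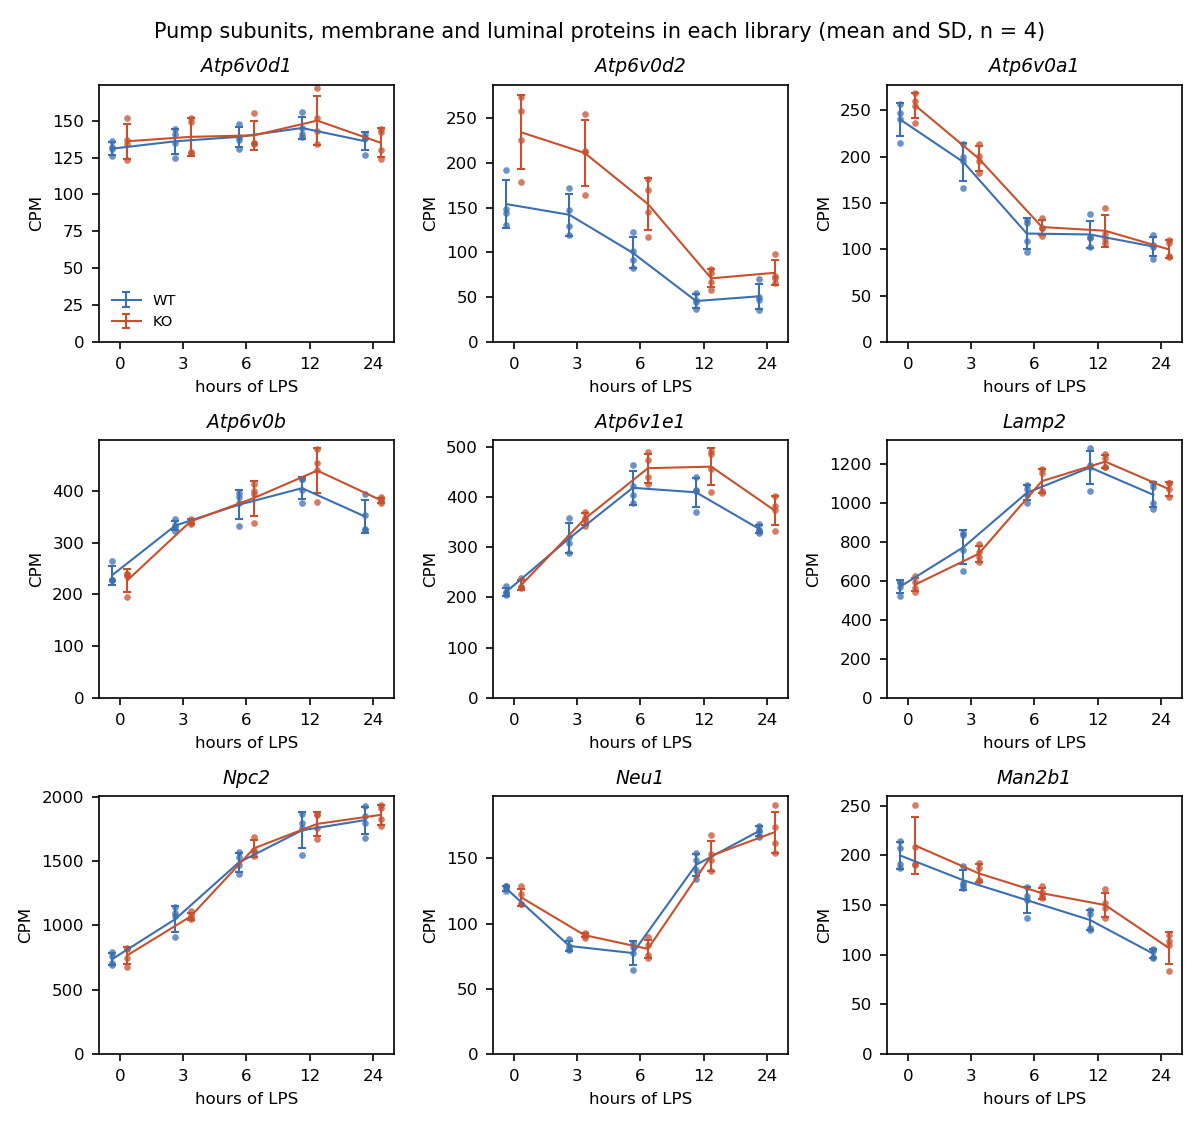
Level in CPM of 9 members (panels) in each library over hours of LPS (equally spaced), WT blue and KO orange, with lines through the means and bars of 1 SD over 4 replicates. Atp6v0d1 stayed between 123 and 172 CPM, Atp6v0d2 and Atp6v0a1 fell, Atp6v0b, Atp6v1e1, Lamp2 and Npc2 rose, and Neu1 fell to 64.3 to 89.5 at 6 h before it rose.

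From 6 h to 24 h Tfeb, Neu1 and Gla were called higher in both genotypes, while most of the pump genes were not called in WT. In WT 8 members were called higher and 11 lower at 24 h against 6 h (all genes 31.7% and 31.2%), with 1 of 8 V1 genes higher and 3 lower, and 5 of 12 luminal genes higher and 4 lower. In KO 6 were higher and 13 lower (31.9% and 29.3%), with 1 of 8 V1 genes higher and 4 lower, and 3 of 12 luminal genes higher and 4 lower, and without KO replicate 3 the number lower was 7. Of the calls 16 were shared by both genotypes and went the same way, a count that was not made over all genes. With library totals the split was 15 higher and 5 lower in WT and 19 and 5 in KO, the median of all genes then moving from 0.01 to 0.21 in WT and from 0.04 to 0.30 in KO. Atp6v0a1 was called lower from 6 h to 24 h in KO (−0.28 ± 0.10, adjusted p = 0.0137), not without replicate 4 (−0.21, adjusted p = 0.102) or with library totals (−0.03, adjusted p = 0.816), and its change in WT was −0.18 ± 0.11.

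Other genes of the lysosomal system, from lists drawn up by function, also moved in both directions. At 24 h 34.5% of all genes tested were called higher and 35.4% lower in WT, and 32.8% and 33% in KO. At 24 h in WT 20 of 33 further hydrolases and their activators were called higher and 9 lower (median log2 fold change 0.44), and in KO 21 and 8 (0.38). Of 26 further membrane proteins 16 were higher and 6 lower (0.41) in WT and 15 and 5 in KO (0.38). Of 11 cathepsins tested 6 were higher and 2 lower in WT and 5 and 1 in KO, and of 8 further V-ATPase genes tested 2 were higher and 3 lower in WT and 2 and 2 in KO. Of 19 genes of TFEB control and lysosomal nutrient sensing 8 were higher and 7 lower in WT and 7 and 4 in KO, and of 9 genes of sorting to lysosomes 2 were higher and 5 lower in both genotypes.

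The extremes of these lists at 24 h in WT were large beside most members. Acp5, tartrate-resistant acid phosphatase, also an osteoclast marker, rose by 4.23 ± 0.29 on the log2 scale (adjusted p = 1.25e-12). Ctsc, the dipeptidyl peptidase that activates granule serine proteases, rose by 2.18 ± 0.08 on the log2 scale (adjusted p = 7.14e-18) and Slc15a3, a lysosomal peptide transporter, by 2.09 ± 0.09 (adjusted p = 2.05e-16). Tcirg1, which encodes the a3 subunit of V0 known from osteoclasts, rose by 0.92 ± 0.07 (adjusted p = 2.41e-11) while the a1 gene Atp6v0a1 fell by 1.22 ± 0.10. M6pr, a receptor for mannose 6-phosphate, rose by 1.04 ± 0.24 (adjusted p = 0.001). Fnip2, a folliculin partner, led the rises among genes of TFEB control (adjusted p = 2.63e-11). The largest falls of the lists were those of Mcoln3 (−3.38 ± 0.26), Dnase2a (−1.87 ± 0.14), Sort1 (−1.76 ± 0.20), Tfec, the TFEB relative found in macrophages (−1.17 ± 0.16), Atp6v1g2 (−1.01 ± 0.37) and Ctsf (−0.92 ± 0.18). Each of these genes was called in the same direction in KO.

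Between KO and WT no member was called at any time. The numbers tested were 37 at 0, 6, 12 and 24 h and 36 at 3 h, where Tfeb did not pass the count filter, and all genes were called at 0% at 0 h, 0.689% at 3 h, 1.01% at 6 h, 0.0464% at 12 h and 0.0809% at 24 h. At an unadjusted p under 0.05 in the same edgeR tests, 4, 7, 7, 1 and 2 members passed at 0, 3, 6, 12 and 24 h, beside 7.67%, 11.7%, 12%, 7.72% and 7.46% of all genes tested. DESeq2 called 1 member at 0 h, 1 at 3 h, 3 at 6 h and 1 at 12 h, and none at 24 h. The shares of all genes above are those of edgeR, and the share that DESeq2 called is not given here. Apart from Atp6v0d2 and Tfeb, the log2 differences of the members lay between −0.25 and 0.34 at every time. The median of the members was 0.06 at 0 h, 0.07 at 3 h, 0.05 at 6 h, 0.07 at 12 h and 0.03 at 24 h, beside 0.00, 0.01, −0.01, −0.00 and 0.00 over all genes tested. KO was above WT in 28, 30, 31, 30 and 27 members, and in 50.5%, 51.7%, 47.9%, 49% and 50% of all genes tested. Of the 36 members tested at all 5 times 19 were above at every time, among them 7 of the 8 V1 subunits, beside 15.2% of the 9788 genes so tested. Same-numbered libraries of different times may share a source, so the 5 times may not be independent. Hexa, among those 19, lay below WT at 0 and 12 h (−0.12 and −0.02) without the libraries that stood apart. Lamp1, Man2b1 and Asah1, also among those 19, were likewise highest in them. In KO 1 at 0 h Lamp1 was at 1100 CPM (other KO 842 to 960, WT 850 to 942). Man2b1 was at 251 there (other KO 190 to 209, WT 187 to 215). In KO 4 at 12 h Asah1 was at 134 (other KO 84.4 to 114, WT 90.6 to 126). The number was not recounted without those libraries and may be lower. Glb1 and Tfe3 were below at every time. With library totals the members' median at 6 h was −0.02 and that of all genes −0.08.

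All 4 KO libraries lay above all 4 WT libraries for 1 member at 0 h, 4 at 3 h, 3 at 6 h, 3 at 12 h and 1 at 24 h. Over all genes tested such a separation was found for 2.63%, 3.26%, 5.07%, 3.28% and 2.43%, and the reverse, KO below WT, for 2.38%, 2.96%, 2.75%, 1.74% and 1.98%, where no member was.

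Atp6v0d2 differed in the same direction at every time, and by more than any other member at 3, 6, 12 and 24 h. Replicate 1 was the highest KO library at each time. Within a genotype, libraries were closest to their own replicate number at another time in 65 of 80 comparisons. The times may therefore not be independent of each other. From the values above, KO exceeded WT with means of 234 ± 41.4 against 154 ± 26.6 CPM (SD, n = 4) at 0 h. The log2 difference was 0.59 ± 0.14 (adjusted p = 0.286). At 3 h the WT libraries were at 129, 119, 147 and 172 CPM and the KO libraries at 254, 164, 213 and 212, with a difference of 0.58 ± 0.14 (adjusted p = 0.12). At 6 h the difference was 0.60 ± 0.15 (adjusted p = 0.109), at 12 h 0.61 ± 0.14 (adjusted p = 0.163) and at 24 h 0.59 ± 0.18 (adjusted p = 0.39). KO and WT overlapped at 0, 3, 6 and 24 h, and did not at 12 h, where the highest WT library was at 54.7 and the lowest KO library at 58.6.

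The call for Atp6v0d2 depended on the test and on single libraries. DESeq2 called it at 0, 3, 6 and 12 h (adjusted p = 0.0234, 0.00291, 0.00387 and 0.0273), and edgeR without a filter on low counts at all 5 times. At 3 h it was called without KO replicate 2 (0.68, adjusted p = 0.0154) or WT replicate 4 (0.69, adjusted p = 0.0455), and at 6 h without KO replicate 4 (0.72, adjusted p = 0.0209) or WT replicate 1 (0.72, adjusted p = 0.027). Each library left out was the lowest of KO or the highest of WT at that time, so its removal widens the difference by construction. The change of this difference with LPS was between −0.01 and 0.03 at the 4 times, with SEs of 0.21 to 0.28 (interaction, adjusted p = 1). Without KO 1 at 0 h and KO 4 at 12 h it was 0.07, 0.10, 0.19 and 0.08 at 3, 6, 12 and 24 h, and not called. The edgeR difference between KO and WT was then 0.50 at 0 h (adjusted p = 0.519) and 0.69 at 12 h (adjusted p = 0.0684).

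Summed osteoclast markers also had higher means in KO at every time. The sum of 10 such genes was 134 to 157 CPM over the KO libraries and 116 to 142 over the WT libraries at 0 h. It was 137 to 161 in KO and 107 to 113 in WT at 6 h, and 75.4 to 80.8 and 65.7 to 72.2 at 24 h. The median log2 difference of those tested was 0.12 at 0 h (5 tested), 0.25 at 3 h (7), 0.25 at 6 h (7), 0.44 at 12 h (7) and 0.36 at 24 h (6), and 2 were called, both at 6 h (all genes 1.01% in either direction). These were Mmp9, a matrix protease, at 21.2 ± 2.56 against 9.35 ± 1.56 CPM (log2 1.17 ± 0.16, adjusted p = 0.00228), and Ctsk, the bone collagen protease, at 16.3 ± 3.04 against 8.2 ± 1.46 (0.96 ± 0.19, adjusted p = 0.0181). Of the 10 markers 0 to 2 had no tag in a group of 4 libraries. At 3 h monocyte markers summed to 186 to 261 CPM in KO and 257 to 288 in WT, and 3 of the 9 were called lower in KO. Neutrophil markers summed to 208 to 277 and 236 to 273, and 2 of the 3 tested were called lower in KO. Of all genes tested at 3 h, 0.689% were called in either direction. The part of any of these cells in the difference of Atp6v0d2 was not tested.

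**Figure D4:**
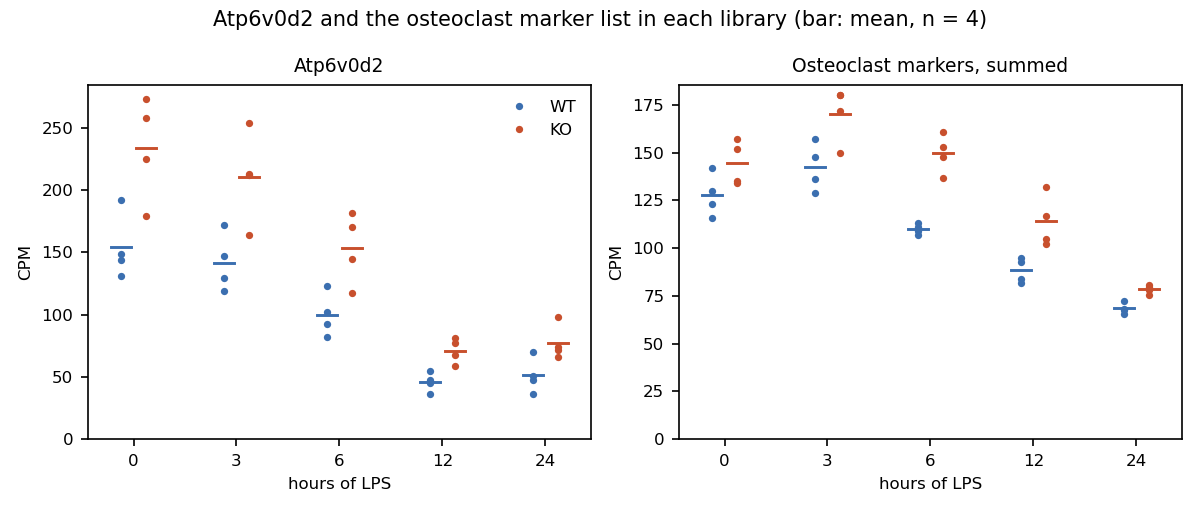
Level in CPM of Atp6v0d2 (left) and of 10 osteoclast markers summed (right) in each library over hours of LPS (equally spaced), WT blue and KO orange, bars at the mean of 4 replicates. KO means lay above WT means at every time in both panels, and for Atp6v0d2 the 4 KO libraries lay above the 4 WT libraries at 12 h alone.

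Lipa, the acid lipase that frees cholesterol and fatty acids, came nearest to a call. At 6 h it stood at 747, 639, 660 and 608 CPM in WT and at 821, 818, 864 and 814 in KO, which did not overlap. The log2 difference was 0.30 ± 0.07 (adjusted p = 0.0524), and it was called with DESeq2's size factors in edgeR (adjusted p = 0.0462), with DESeq2 (0.32, adjusted p = 0.00174), without a filter on low counts (adjusted p = 0.00843) and without WT replicate 1 (0.37, adjusted p = 0.0154). That replicate was the highest of WT, so its removal widens the difference by construction. At the other times its difference was between 0.14 and 0.23, with adjusted p from 0.383 to 0.745.

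The 3 factors were not called either. Tfeb in KO exceeded WT by 0.86 ± 0.33 at 0 h (adjusted p = 0.556), by 0.56 ± 0.30 at 12 h (adjusted p = 0.704) and by 0.36 ± 0.15 at 24 h (adjusted p = 0.582), and at 6 h the difference was −0.01 ± 0.32. Without KO 1 at 0 h and KO 4 at 12 h the differences at 0 and 12 h were 0.41 and 0.15 (adjusted p = 0.706 and 0.88). Mitf differed by −0.12 to 0.10 and Tfe3 by −0.25 to −0.05 over the 5 times, with adjusted p of 0.417 or more. Atp6v0d1 differed by −0.02 to 0.05 (adjusted p of 0.877 or more). Of the subunits of V1, Atp6v1c1 differed most at 3 h (0.19 ± 0.06, adjusted p = 0.2) and Atp6v1a most at 12 h (0.24 ± 0.11, adjusted p = 0.66). Hexa differed by 0.26 ± 0.28 at 0 h and 0.27 ± 0.21 at 12 h, and without the libraries that stood apart by −0.12 and −0.02.

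**Figure D5:**
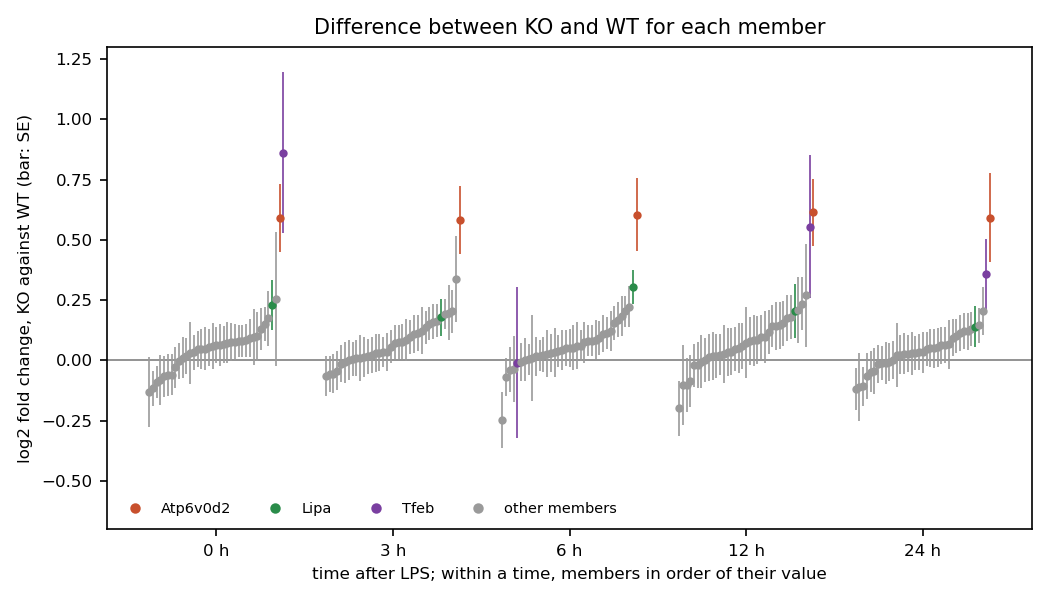
Log2 difference between KO and WT for each member tested (points, in order of value within a time, bars of 1 SE) at 0, 3, 6, 12 and 24 h. With all libraries, Atp6v0d2 lay between 0.58 and 0.61 at every time, Lipa reached 0.30 at 6 h, and apart from Atp6v0d2 and Tfeb the members lay between −0.25 and 0.34.

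The response to LPS was not called different between the genotypes for any member. In the interaction tests at 3, 6, 12 and 24 h, all genes were called at 0%, 0%, 0% and 0.00818%. At an unadjusted p under 0.05 the same edgeR tests passed 1, 0, 0 and 0 members, and DESeq2 called 0 members at each time. The shares of all genes at that unadjusted p and with DESeq2 are not given here. The difference of the 2 responses lay between −0.86 and 0.47 on the log2 scale over the 4 times, the lowest being that of Tfeb at 6 h (−0.86 ± 0.50). Without the libraries that stood apart that value was −0.41. For Mitf the 4 values were between −0.22 and −0.01, for Tfe3 between −0.12 and 0.07 and for Atp6v0d1 between −0.07 and −0.01.

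Of the other lysosomal lists, 2 of 11 cathepsins were called between the genotypes, both higher in KO at 6 h (all genes 1.01% in either direction). They were Ctsk, which is also on the osteoclast list, and Ctsl, an endopeptidase of the lysosome, at 1710 ± 174 CPM in KO and 1330 ± 74 in WT (0.35 ± 0.08, adjusted p = 0.034).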

How the data were processed

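Messenger RNA of 40 libraries was sequenced with a 3′ tag kit (QuantSeq 3′ mRNA FWD). The deposited table holds expected counts per gene, all whole numbers, which the authors made with RSEM, per the submitters' processing notes. RSEM was version 1.3.3, and the notes also name the aligner STAR 2.7.10a, UMI-tools 1.1.2, cutadapt 3.7 and the build GRCm39. Their settings, the strand and the collapsing of molecular identifiers are not given in the sources used. From the counts, genes were filtered (filterByExpr, minimum count 10), scaled by TMM and tested by edgeR 4.0.16 (R 4.3.3, robust quasi-likelihood F-test), with Benjamini-Hochberg adjustment over all genes tested. LPS was tested over the 20 libraries of a genotype, KO against WT over the 8 of a time, and the interaction over 16. The steps were tested on simulated data. Alternatives were DESeq2 1.42.0 and its size factors, library totals, no filter, a replicate block, one fit, sex and left-out libraries. Replicates differed beyond counting noise in all 60 pairs (chi-square per degree of freedom 2.34 to 18.9). Nothing states that replicates are separate animals or cultures, so p-values measure the spread between these libraries. Full values were given by a written rule to members extreme in each role or contrast, the 3 factors and the d subunits. Members and lists were chosen with earlier results of these data known.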

Additional observations from a re-analysis of the deposited data

Results flagged for a closer look

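Of 140 groups of 4 libraries (14 members in 10 groups), 9 held a library far from the other 3, its gap to the nearest exceeding Dixon's critical share of the group's range, and chance alone gives about 1 in 20 such groups. Mitf stood at 321 CPM in WT replicate 4 at 3 h, beside 293 to 297 in the others, and at 319 in WT replicate 4 at 6 h, beside 279 to 285. Atp6v1e1 stood at 239 CPM in KO replicate 1 at 0 h, one of the libraries that stood apart, beside 218 to 221. Tfe3 was at 156 CPM in KO replicate 3 at 12 h with all others at 119, and the call for Tfe3 at that time was lost without replicate 3. Atp6v0d1 was at 155 CPM in KO replicate 2 at 6 h, beside 134 to 135. Lipa was flagged in KO at 3 times, with 861 CPM in replicate 4 at 3 h below 895 to 897, 864 in replicate 3 at 6 h above 814 to 821, and 670 in replicate 4 at 24 h below 729 to 731. Atp6v1a was at 1200 CPM in KO replicate 3 at 3 h, below 1370 to 1390. Their part in any result beyond the values given was not tested.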

How the results depend on the processing

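Of 1889 values of named members under an alternative, 18 changed sign with a call before or after, 22 lost a call and 44 gained one, and another 86 changed sign without a call in either. All 18 arose with library totals, which lower the median of all genes. In WT Atp6v0d1 then stood at −0.31, −0.43, −0.26 and −0.25 at 3, 6, 12 and 24 h and at 0.18 from 6 to 24 h, Tfe3 at −0.31 and −0.049 at 6 and 12 h, Neu1 at −0.23 at 12 h and Lamp2 at 0.19 from 6 to 24 h. In KO Atp6v0d1 stood at −0.32, −0.53 and −0.30 at 3, 6 and 12 h and at 0.22 from 6 to 24 h, Tfe3 at −0.50 and −0.16 at 6 and 12 h, Neu1 at −0.10 at 12 h, and Lamp2 at −0.0041 at 3 h and 0.23 from 6 to 24 h. Members called higher and lower with library totals were 3 and 25, 5 and 25, 8 and 20, and 12 and 16 in WT at 3, 6, 12 and 24 h, and 15 and 5 from 6 to 24 h. In KO they were 3 and 18, 6 and 27, 6 and 19, 11 and 14, and 19 and 5.

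Other counts that moved by over 1.5 times, for which the cause was not tested, were these. At 3 h in WT 4 members were lower with DESeq2 and 4 with its size factors in edgeR. At 3 h in KO 15 were higher with DESeq2, with its size factors and with the replicate block, and 14 in one fit of all libraries, while 5 were lower with the block and in one fit. From 6 to 24 h in KO 8 were lower with no filter on low counts. Between KO and WT DESeq2 called 1 member at 0 h, 1 at 3 h, 3 at 6 h and 1 at 12 h, no filter 2, 1, 2, 1 and 1 at 0, 3, 6, 12 and 24 h, DESeq2's size factors 1 at 6 h and the replicate block 1 at 6 h. The shares of all genes called under these alternatives are not given here. With 1 replicate left out in turn, the number lower in WT at 3 h was 3 to 7, higher in KO at 3 h 6 to 15, lower in KO from 6 to 24 h 7 to 12, and called between KO and WT 0 to 1 at 3 h and 0 to 2 at 6 h.

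The labels link libraries across times by a replicate number alone, so the block is given here only. As a hint from the data, each number of a genotype had 1 sex at all 5 times. Deviations of same-numbered libraries of 1 genotype correlated at −0.092 to 0.449 (median 0.124, over 0.1 in 48 of 80 pairs), 65 of 80 being closest to their own number, and across genotypes 1 of 20 pairs was over 0.1. With the block these were called in addition: Atp6v0d1 at 12 h in WT (0.14, adjusted p = 0.0484), Tfe3 at 6 h in WT (0.18, adjusted p = 0.043) and at 24 h in KO (0.23, adjusted p = 0.0349), Man2b1 at 3 h in KO (−0.21, adjusted p = 0.0288), Atp6v0a1 from 6 h to 24 h in WT (−0.18, adjusted p = 0.0325) and Atp6v0d2 between KO and WT at 6 h (0.60, adjusted p = 0.0244). Sex as a covariate, from Xist and Y-linked counts, changed no count of members called between the genotypes or in the interactions. Depth limits Tfeb most, which had 3 to 20 tags per library at 3 h and was not testable between genotypes then.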
